A study of Mus musculus with 11 samples.

Results

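Claudins are the proteins that form the strands of the tight junction, and the 10 described here, Cldn1, Cldn2, Cldn3, Cldn4, Cldn5, Cldn7, Cldn8, Cldn10, Cldn16 and Cldn18, are those known from kidney tubule, lung alveolus and blood vessel. They were chosen by name, with earlier results of these data known. Every probe whose symbol in the platform annotation was one of these names was taken, which gave 16 of the 45281 probes on the array and 10 of its 19057 named genes. The study took 11 whole organs, 1 per Illumina array, from BALB/c mice labelled as adult females. They were kidneys of healthy mice (n = 3), kidneys with fibrosis after unilateral obstruction of the ureter (n = 2), lungs of healthy mice (n = 3) and lungs with fibrosis after bleomycin was injected into the trachea (n = 3). By their titles the healthy kidneys and healthy lungs came from the same 3 animals, although another label field counts a separate mouse for every array. The labels state neither the time after surgery or bleomycin nor whether the opposite kidney or a sham operation served as a comparison, and the healthy mice were the controls for both diseases. Levels are log2 values after background correction and normalisation between arrays, a probe is called above background where its detection p was under 0.05, and changes are called at an adjusted p under 0.05 from limma. Probes differ in brightness, so a level is compared between arrays for 1 probe and not between genes.

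A tight junction is a belt of paired strands that closes the gap between neighbouring cells, and the claudins in the strands decide which ions and how much water pass through it. Some claudins, such as Cldn1, Cldn3, Cldn4, Cldn5 and Cldn18, mainly seal the gap, while Cldn2 and Cldn10 form channels for ions, and Cldn16 takes part in the passage of calcium and magnesium. Each segment of the nephron carries its own set, with Cldn2 in the leaky proximal tubule, Cldn16 and some forms of Cldn10 in the thick ascending limb, and Cldn4, Cldn7 and Cldn8 further down towards the collecting duct. In the lung Cldn3, Cldn4 and Cldn18 lie in the alveolar epithelium, Cldn18 in a lung-specific form, and Cldn5 is the main claudin of endothelium in many vascular beds.

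The organs matched their labels by defining genes. Umod, the uromodulin of the thick ascending limb, stood between 14.37 and 14.58 in healthy kidneys, and Sftpc, the surfactant protein of alveolar type 2 cells, between 14.00 and 14.15 in healthy lungs, and neither was above background in the other healthy organ. Several arrays stood apart. Healthy lung 3 carried liver transcripts, with all 8 liver genes tested above background at a mean log2 level of 12.97, against 3 of 8 and means of 5.37 and 5.66 in the other healthy lungs. Of the same 8 genes, 8, 7 and 6 were above background in healthy kidneys 1, 2 and 3, and 3 and 4 in obstructed kidneys 1 and 2. Their median log2 change in the obstructed kidneys was -2.09, with 1 called lower and 0 higher, beside 15.6% of all genes lower. The part of liver transcripts in the kidney values of the claudins was not tested. Fibrotic lung 1 carried kidney transcripts, with Umod at 9.19 against 5.74 and a value not above background in the other treated lungs. Both obstructed kidneys carried lung transcripts, with Scgb1a1, the secretoglobin of airway club cells, at 12.48 and 11.35 and not above background in healthy kidneys. The sex-linked transcripts went against the labels: Xist, which silences an X chromosome in female cells, was above background in both obstructed kidneys and in fibrotic lungs 1 and 3 and on no healthy array, while the Y-linked Eif2s3y was above background on every healthy array and in fibrotic lungs 1 and 2. In kidney, sex and obstruction therefore cannot be told apart. The lung results of the claudins, by the brightest probe of each, are also given without healthy lung 3, fibrotic lung 1 or fibrotic lung 3 where the call changed. In whole organs, fewer cells of a type and less RNA per cell cannot be told apart either. The arrays had raw median intensities from 95.2 to 125.1 and from 17036 to 21504 probes above background, and none was a copy of another. Precision is limited by how few arrays there are, most of all for the 2 obstructed kidneys.

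Of the 10 claudins, 9 passed the filter on dim probes. Cldn8, a claudin of the collecting duct, did not: its 2 probes were not above background on any of the 11 arrays, with log2 levels between 4.33 and 4.84, so Cldn8 could not be measured here and was not tested. Cldn10 had 5 probes, of which 4 were kept, Cldn2 had 2, and the other claudins had 1 each. A gene with several probes is represented by the one with the highest mean level, and the others are given beside it.

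**Figure D1:**
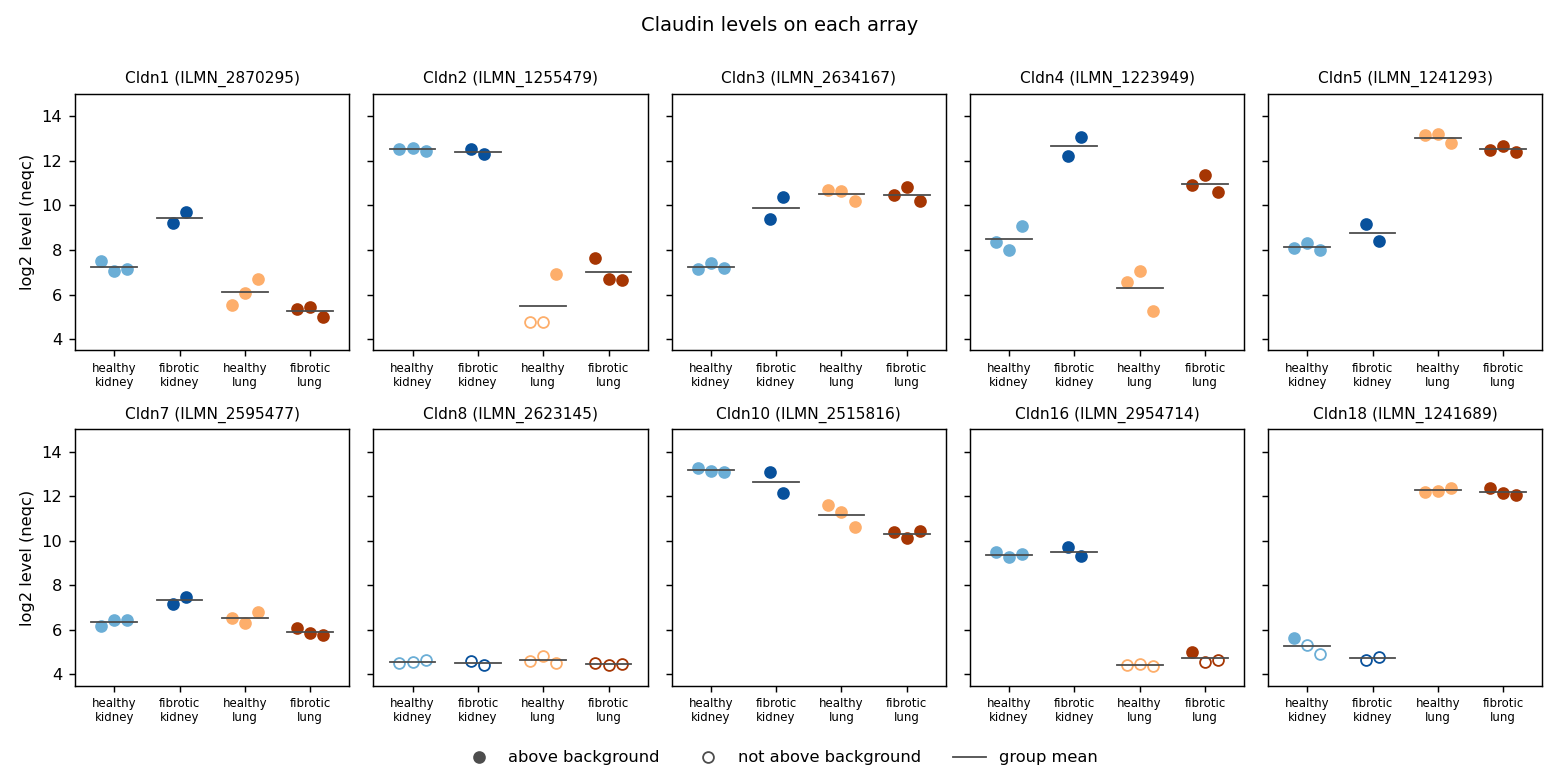
Log2 level of each of the 10 claudins on every array, 1 panel per gene with the probe in brackets; points are arrays, filled where the probe was above background and open where it was not, and the line is the group mean. Cldn4 lies higher in both fibrotic groups than in the healthy organ, with no overlap, Cldn1 and Cldn3 lie higher in the obstructed kidneys alone, and Cldn8 is at background throughout.

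In the obstructed kidney Cldn4 rose 18.1-fold, Cldn3 6.19-fold, Cldn1 4.63-fold and Cldn7 1.95-fold, while Cldn2 and Cldn16 did not pass the test. Of the 9 claudins tested, 5 were higher and 0 lower, beside 38.8% of all genes tested called in this comparison, 23.2% higher and 15.6% lower. The median log2 change over the 9 claudins was 0.64, and over all genes 0.10. The groups did not overlap for 7 of the 9, beside 60.6% of all genes. Of all genes called, 59.8% were higher, but 78.9% under scale normalisation and 32.2% in the authors' processed values without further normalisation.

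Cldn4, a sealing claudin of the collecting duct and of many other epithelia, had log2 levels of 8.36, 7.98 and 9.08 in healthy kidneys and 12.24 and 13.06 in the obstructed ones. Even the lower obstructed kidney was far above the highest healthy one. The change was 4.18 ± 0.50 (SE; limma adjusted p = 0.00015), and it was called under each of the 21 other settings tried, at 3.77 to 4.62.

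Cldn3, whose gene lies next to Cldn4 on chromosome 5 and which also seals, stood at 7.15, 7.43 and 7.18 in healthy kidneys and at 9.40 and 10.36 in the obstructed ones. The groups were well apart, although the 2 obstructed kidneys differed from each other by more than the healthy ones did. The change was 2.63 ± 0.29 (SE; limma adjusted p = 9.3e-05).

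The promoters of these neighbouring genes, and of Cldn1, are shown because the 3 genes had the largest rises among the claudins in kidney. Each sequence is the 250 bases before the start of transcription in RefSeq on GRCm38.p6, written 5′ to 3′ on the strand of the gene, and positions are counted back from -1 at the last base. Capitals mark matches, on either strand, to 5 motifs that were chosen after these letters had been seen: the AP-1 motif TGANTCA, the grainyhead motif AACCNGTT, the GC box GGGCGG, the Snail-type E-box CAGGTG and the TATA box TATAAA. The windows lie at chr5:134946935-134947184 on the minus strand for Cldn4, chr5:134985964-134986213 on the plus strand for Cldn3 and chr16:26371840-26372089 on the minus strand for Cldn1.
Cldn4: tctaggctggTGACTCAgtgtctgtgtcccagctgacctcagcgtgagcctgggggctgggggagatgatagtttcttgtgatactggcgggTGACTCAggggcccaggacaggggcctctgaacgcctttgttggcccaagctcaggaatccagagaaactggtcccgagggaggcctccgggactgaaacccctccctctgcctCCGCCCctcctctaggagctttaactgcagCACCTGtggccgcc
Cldn3: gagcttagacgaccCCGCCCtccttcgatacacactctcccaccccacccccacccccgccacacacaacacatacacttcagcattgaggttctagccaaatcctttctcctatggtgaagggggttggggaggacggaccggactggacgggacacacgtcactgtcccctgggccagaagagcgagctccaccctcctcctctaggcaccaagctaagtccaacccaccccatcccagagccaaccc
Cldn1: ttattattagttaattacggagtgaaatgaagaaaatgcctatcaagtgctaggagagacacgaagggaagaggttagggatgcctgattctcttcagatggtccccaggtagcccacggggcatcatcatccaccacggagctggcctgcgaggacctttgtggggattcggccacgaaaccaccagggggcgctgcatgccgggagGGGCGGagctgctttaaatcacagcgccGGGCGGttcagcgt

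Cldn4 held the AP-1 letters at -240 and at -158, a GC box at -44 and an E-box at -14. Of 32851 promoter windows of this length, 6.75% held the AP-1 motif, 32.7% a GC box and 17.2% the E-box. Cldn3 held a GC box alone, at -236, and Cldn1 held GC boxes at -42 and -14. The neighbouring and jointly higher Cldn3 and Cldn4 thus shared, of these motifs, the GC box, which is the most widespread of the 5. A match of letters does not show that a factor binds there.

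Cldn1, the claudin of the epidermal barrier and, in the kidney, of the parietal epithelium around the glomerulus, read 7.50, 7.05 and 7.16 in healthy kidneys against 9.21 and 9.70 in obstructed ones. Every obstructed kidney was above every healthy one. The change was 2.21 ± 0.32 (SE; limma adjusted p = 0.00045). The neighbour of Cldn1 on chromosome 16 is Cldn16, which did not pass the test in these kidneys.

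Cldn7, found along the sides of many epithelial cells, including those of the distal nephron, rose from 6.19, 6.46 and 6.43 to 7.18 and 7.47. The shift was small and the groups did not overlap. The change was 0.96 ± 0.19 (SE; limma adjusted p = 0.0025). Cldn1, Cldn3 and Cldn7 were each called under the same 21 settings as Cldn4.

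Cldn5, the claudin of endothelium, stood at 8.11, 8.30 and 7.99 in healthy kidneys and at 9.15 and 8.41 in the obstructed ones. One obstructed kidney was clearly higher and the other only just above the highest healthy value. The change of 0.64 ± 0.23 (SE; limma adjusted p = 0.047) lost its call under 14 of the 21 other settings, with a change of 0.28 without fibrotic kidney 1 and of 1.01 without fibrotic kidney 2. Of 16 endothelial markers, 7 were higher and 1 was lower in the same kidneys (median log2 change 0.54), beside 23.2% of all genes higher and 15.6% lower.

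The claudins of the proximal tubule and the thick ascending limb followed no single course. Cldn2, which lets sodium and water pass between proximal tubule cells, had levels of 12.52, 12.56 and 12.46 in healthy kidneys and 12.54 and 12.30 in the obstructed ones. The groups overlapped, and the change was -0.09 ± 0.56 (SE; limma adjusted p = 0.92). The second probe of Cldn2 gave -0.39 ± 0.57, also not called, although its 2 obstructed kidneys, at 12.07 and 11.95, were both below the healthy ones at 12.37 to 12.43. The SE pools all 4 groups, and the SD of Cldn2 was 1.24 in healthy lungs and 0.05 in healthy kidneys. In the obstructed kidneys 6 of 10 proximal tubule markers were lower and 0 higher, with a median log2 change of -1.36, beside 15.6% of all genes lower. Among these markers Slc22a6, an organic anion transporter, fell by 3.23 ± 0.25 log2 units (SE; limma adjusted p = 1.5e-05).

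Cldn16 had levels of 9.48, 9.26 and 9.40 in healthy kidneys and 9.70 and 9.33 in the obstructed ones. The groups overlapped, and the change was 0.14 ± 0.18 (SE; limma adjusted p = 0.59). Of the 9 thick ascending limb markers tested, a list that includes Cldn10, Cldn16 and Cldn19, 3 were lower and 0 higher, beside 15.6% of all genes lower. But from 0 to 4 of these markers were called when 1 array was left out, 0 of them without fibrotic kidney 2. Egf, a growth factor made in that segment and the next, fell by 1.43 ± 0.40 (SE; limma adjusted p = 0.017; -0.70 and not called without fibrotic kidney 2), whereas the change of Umod was -0.03 ± 1.00 and that of the salt cotransporter Slc12a1 was -0.62 ± 0.63, neither of them called.

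The probes of Cldn10 gave different answers. The brightest, ILMN_2515816, which the annotation assigns to NM_021386, had levels of 13.27, 13.15 and 13.10 in healthy kidneys and 13.09 and 12.15 in the obstructed ones. Only the second obstructed kidney was clearly lower, and the change of -0.55 ± 0.31 was not called (SE; limma adjusted p = 0.19; -1.02 without fibrotic kidney 1 and -0.08 without fibrotic kidney 2). ILMN_2610656, assigned to NM_023878, had 10.52, 10.46 and 10.39 in healthy kidneys and 8.53 and 7.35 in the obstructed ones. Here the groups lay far apart, and the signal of this probe fell by 2.52 ± 0.27 log2 units in the fit over all probes (SE; limma adjusted p = 5.5e-05). ILMN_2723576, assigned to NM_021386 like the brightest probe, fell by 1.56 ± 0.33 (SE; limma adjusted p = 0.004), from 10.47, 10.45 and 11.08 to 9.50 and 8.72. ILMN_1214954, assigned to NM_023878, went from 11.15, 11.38 and 11.48 to 11.11 and 9.91, a change of -0.82 ± 0.35 that was not called (SE; limma adjusted p = 0.087). In all 4 probes the mean of the obstructed kidneys was below that of the healthy ones, and the second obstructed kidney was the lower one. With the mean of the 4 probes in place of the brightest, Cldn10 was called, at -1.36 (limma adjusted p = 0.00394). The fifth probe, ILMN_1257561, was not above background on any array. Which segment of the nephron each probe reads was not tested.

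RefSeq gives Cldn10 starts of transcription in 2 places, and their promoters are shown because the probes of this gene disagreed. They lie at chr14:118787621-118787870 and chr14:118854700-118854949, both on the plus strand of GRCm38.p6. The sources used here do not say which start each probe reads, so no probe is tied to a promoter. Capitals mark the GC boxes.
Cldn10 start 1: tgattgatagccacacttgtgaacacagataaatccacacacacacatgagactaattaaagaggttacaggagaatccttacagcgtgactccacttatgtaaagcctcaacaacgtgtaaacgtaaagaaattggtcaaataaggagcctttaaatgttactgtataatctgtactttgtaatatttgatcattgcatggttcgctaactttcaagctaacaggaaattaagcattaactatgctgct
Cldn10 start 2: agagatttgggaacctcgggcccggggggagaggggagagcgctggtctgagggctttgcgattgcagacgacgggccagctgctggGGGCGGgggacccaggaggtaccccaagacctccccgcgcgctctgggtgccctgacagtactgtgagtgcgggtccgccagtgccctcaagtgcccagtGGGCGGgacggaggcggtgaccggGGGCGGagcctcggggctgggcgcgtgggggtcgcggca

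The promoters differ in base composition, with 36.0% G and C before the first start and 72.4% before the second. The first held none of the 5 motifs and the second held GC boxes at -163, -63 and -39. Among the other claudins, Cldn7 held GC box and E-box letters before 1 of its 2 starts, Cldn2 held a TATA box at -35, Cldn5 the grainyhead letters at -20 and a GC box at -45, and Cldn16 and Cldn18 none of the motifs.

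**Figure D2:**
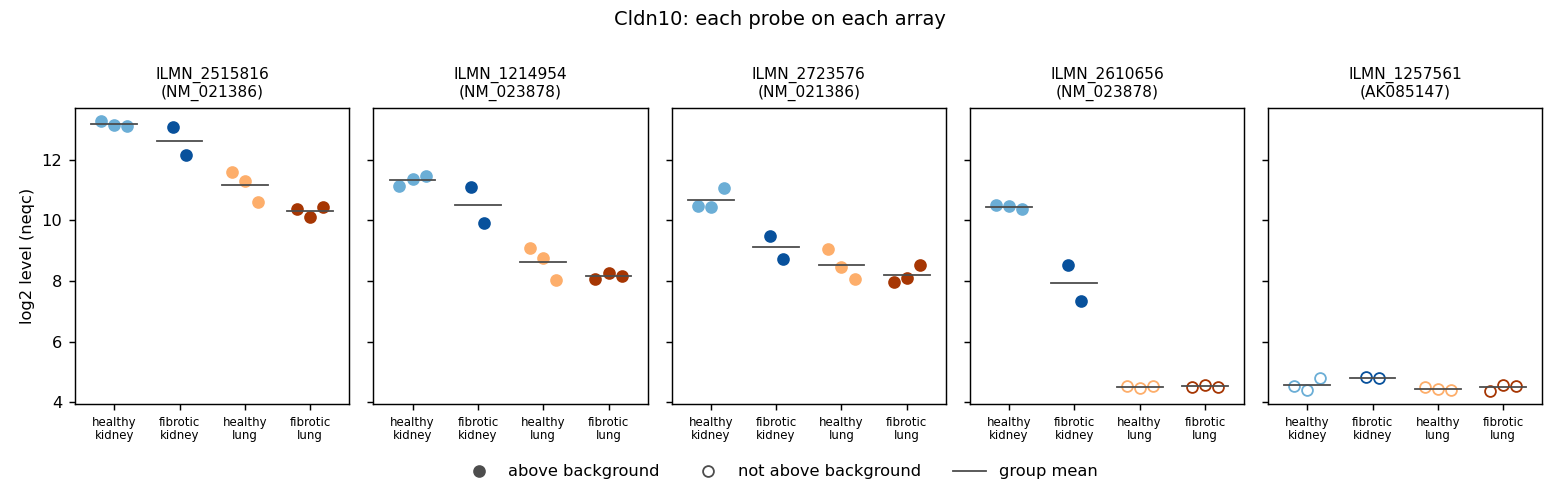
Log2 level of each of the 5 Cldn10 probes on every array, with the transcript the annotation assigns in brackets; points are arrays, filled where above background, and the line is the group mean. ILMN_2610656 falls from above 10 to 8.53 and 7.35 in the obstructed kidneys and is at background in all 6 lungs, whereas the other 3 measured probes are above background in lung too.

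Cldn18, the claudin of alveolus and stomach, was not above background in either obstructed kidney (4.66 and 4.80) and was above it in 1 of 3 healthy kidneys (5.64, beside 5.31 and 4.90). The difference of -0.56 ± 0.21 was not called (SE; limma adjusted p = 0.057). The obstructed kidneys carried the lung transcripts Scgb1a1 and Sftpc, the latter at 9.23 and 7.75. The part of lung transcripts in the claudin values of these kidneys was not tested. The rises of Cldn3 and Cldn4, which the lung also expresses, occurred in these same kidneys; healthy lung had Cldn3 at 10.21 to 10.68 and Cldn4 at 5.28 to 7.04, the latter below every kidney, while the bleomycin-treated lungs had Cldn4 at 10.60 to 11.38, above every healthy kidney and below both obstructed ones. Of 9 urothelium markers, 2 were higher in the obstructed kidneys, beside 23.2% of all genes. These were Krt20, by at least 24.4-fold, and Krt5, by at least 1.73-fold. Above background were 9 and 8 of the 9 markers in the obstructed kidneys, at mean log2 levels of 7.04 and 6.74. Healthy kidneys 1, 2 and 3 had 6, 2 and 7 above background, at means of 5.74, 5.04 and 6.67. The part of urothelium transcripts in the claudin values was not tested.

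In the lung after bleomycin, Cldn4 rose 25.6-fold, Cldn2 was higher and Cldn1, Cldn7 and Cldn10 were lower, while the alveolar claudins Cldn3 and Cldn18 did not pass the test. Of the 9 claudins, 2 were higher and 3 lower, beside 37.8% of all genes tested called in this comparison, 18.9% higher and 18.9% lower. The median log2 change over the 9 claudins was -0.07, and over all genes -0.03. The groups did not overlap for 6 of the 9, beside 52.9% of all genes. Of all genes called, 50.1% were higher, but 64.7% under scale normalisation and 88.1% in the authors' processed values without further normalisation. This count was unstable: it was 2 without any 1 of the 3 treated lungs or without healthy lung 2, 3 without healthy lung 1 or healthy kidney 3, 5 without healthy lung 3 and 4 without healthy lung 3 and fibrotic lung 1 together.

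Cldn4 had levels of 6.54, 7.04 and 5.28 in healthy lungs and 10.92, 11.38 and 10.60 in the treated ones. Every treated lung was far above every healthy one, and healthy lung 3, the array with liver transcripts, was the lowest. The change was 4.68 ± 0.45 (SE; limma adjusted p = 8e-05), 4.19 without healthy lung 3 and 4.23 without healthy lung 3 and fibrotic lung 1. It was called under all 22 other settings.

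Cldn2 was not above background in healthy lungs 1 and 2 (4.76 and 4.75), stood at 6.90 in healthy lung 3 and at 7.62, 6.70 and 6.66 in the treated lungs. Healthy lung 3 therefore lay within the range of the treated lungs. The change was 1.52 ± 0.50 (SE; limma adjusted p = 0.036), and the second probe, which showed the same pattern, gave 1.42 ± 0.51 (limma adjusted p = 0.048). Of the other settings, 10 of 22 ended the call of the first probe and 14 of 21 that of the second. Without healthy lung 3, Cldn2 was at least 4.04-fold higher in the treated lungs (limma adjusted p = 0.000304), and at least 3.41-fold by the second probe. Without fibrotic lung 1, the array with kidney transcripts and the highest Cldn2, the change was 1.18 and was not called (limma adjusted p = 0.127), nor was it without healthy lung 1 (1.17), healthy lung 2 (1.16), fibrotic lung 2 (1.65), fibrotic lung 3 (1.66, limma adjusted p = 0.0518) or healthy kidney 3 (1.54). Without healthy lung 3 and fibrotic lung 1 together Cldn2 was at least 3.17-fold higher (limma adjusted p = 0.000316). Cldn2 is also a claudin of liver and of proximal tubule, and the part of the liver and kidney transcripts in these values was not tested beyond leaving out the arrays.

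**Figure D3:**
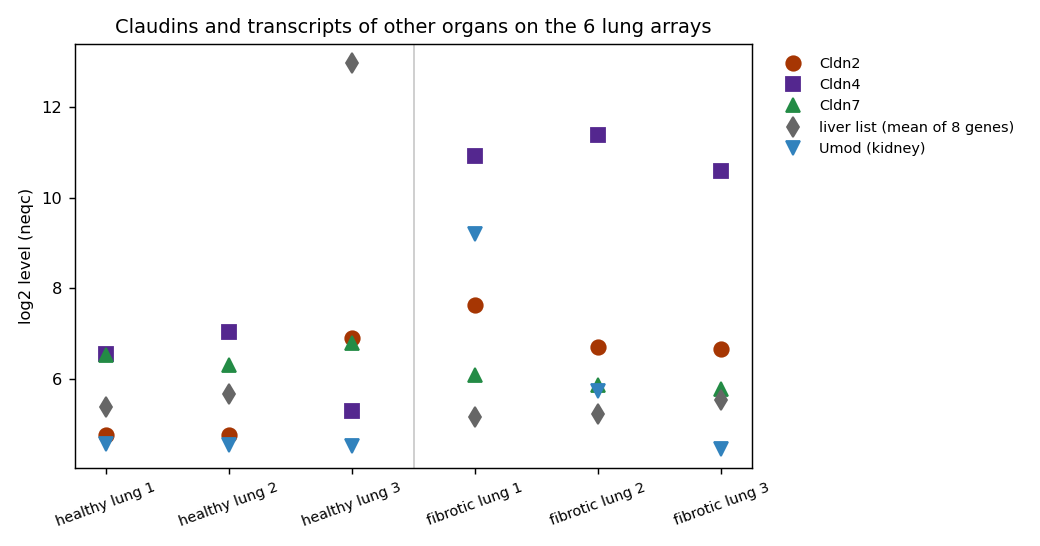
Log2 levels of Cldn2, Cldn4 and Cldn7, the mean of 8 liver genes and the kidney gene Umod on each of the 6 lung arrays. Cldn2 is highest among healthy lungs on array 3, where the liver mean is 12.97, and highest among treated lungs on array 1, where Umod is 9.19, while Cldn4 separates the groups on every array.

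Cldn7 had levels of 6.53, 6.31 and 6.79 in healthy lungs and 6.08, 5.86 and 5.77 in the treated ones. The groups did not overlap, but the gap between them was narrow. Cldn7 fell by 0.64 ± 0.17 log2 units (SE; limma adjusted p = 0.012), and by 0.60 without healthy lung 3 and fibrotic lung 1; the call was lost under scale normalisation (-0.45, limma adjusted p = 0.0679) and in the authors' processed values without further normalisation (-0.07, limma adjusted p = 0.723), and held when any 1 array was left out.

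Cldn1 went from 5.51, 6.06 and 6.71 to 5.34, 5.45 and 5.01, all of them low but above background. The lowest healthy lung was close to the highest treated one. The change was -0.82 ± 0.28 (SE; limma adjusted p = 0.043), and it was not called without healthy lung 3 (-0.51, limma adjusted p = 0.128), without fibrotic lung 1 (-0.84, limma adjusted p = 0.0834) or without fibrotic lung 3 (-0.68, limma adjusted p = 0.132). In all, 15 of 22 other settings ended this call.

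Cldn10, by its brightest probe, went from 11.61, 11.30 and 10.61 to 10.38, 10.12 and 10.44. Here too the groups touched without overlapping. The change was -0.86 ± 0.28 (SE; limma adjusted p = 0.034), and -1.19 without healthy lung 3 and fibrotic lung 1, but 9 of 22 other settings ended the call. It was lost without any 1 of the treated lungs (-0.90, -0.77 and -0.93 without fibrotic lungs 1, 2 and 3) and without healthy lung 1 (-0.65) or healthy lung 2 (-0.80), and by the mean of the probes (-0.41). The probes ILMN_1214954 and ILMN_2723576 changed by -0.47 ± 0.31 and -0.34 ± 0.30 and were not called, and ILMN_2610656 was not above background in any lung.

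Cldn3 stood at 10.68, 10.63 and 10.21 in healthy lungs and 10.45, 10.83 and 10.18 in treated ones. The groups overlapped fully, and the change was -0.02 ± 0.26 (SE; limma adjusted p = 0.96). Cldn18 stood at 12.17, 12.23 and 12.39 and at 12.37, 12.15 and 12.07, again overlapping, with a change of -0.07 ± 0.19 (SE; limma adjusted p = 0.81). Neither was called when any 1 array was left out. In the same lungs 4 of 10 markers of alveolar type 2 cells were lower and 0 higher, with a median log2 change of -0.46, beside 18.9% of all genes lower. Between 2 and 7 of these markers were called when 1 array was left out, and between 2 and 8 under other settings.

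Cldn5 had levels of 13.14, 13.22 and 12.78 in healthy lungs and 12.47, 12.67 and 12.40 in treated ones. All treated lungs were lower than all healthy ones, but the change of -0.53 ± 0.20 was not called (SE; limma adjusted p = 0.064). It was called under 7 of 22 other settings, among them the one without healthy lung 3 (-0.67, limma adjusted p = 0.0378). The change of Cldn5 stayed between -0.67 and -0.45 when 1 array was left out. Under the remaining settings it ran from -0.65 to 0.09, so its sign depended on the processing. Of the 16 endothelial markers 11 were lower and 0 higher in these lungs, with a median log2 change of -0.86, beside 18.9% of all genes lower. The endothelial cadherin Cdh5 fell by 1.04 ± 0.21 (SE; limma adjusted p = 0.0033). Cldn16 was above background in 1 lung, fibrotic lung 1 at 5.02, the array with kidney transcripts.

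**Figure D4:**
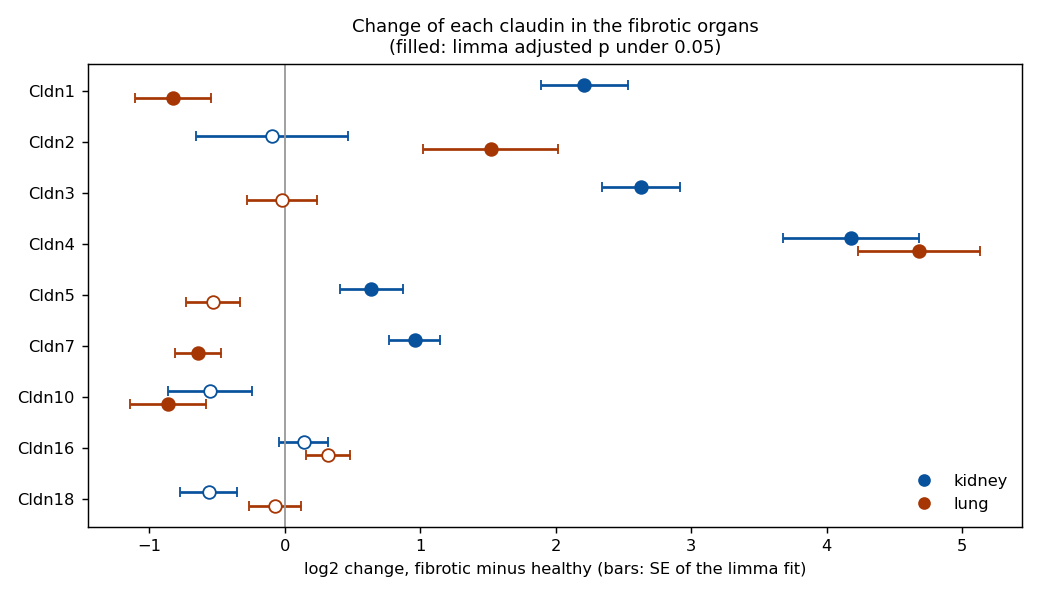
Log2 change of the 9 claudins tested, fibrotic minus healthy, in kidney (n = 2 against 3) and lung (n = 3 against 3); bars are the SE of the limma fit and filled points have an adjusted p under 0.05. Cldn4 changes by 4.18 and 4.68, Cldn1 and Cldn7 lie on opposite sides of 0 in the 2 organs, and Cldn3 moves in kidney.

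The responses of the organs were then compared directly, as the kidney change minus the lung change. Of the 9 claudins 4 had a higher value in kidney and 0 a lower one, beside 40.0% of all genes tested, 23.9% higher and 16.2% lower. The difference was 3.04 ± 0.43 for Cldn1 (SE; limma adjusted p = 0.00044), 2.65 ± 0.39 for Cldn3 (limma adjusted p = 0.00055), 1.60 ± 0.25 for Cldn7 (limma adjusted p = 0.00077) and 1.18 ± 0.31 for Cldn5 (limma adjusted p = 0.012). The call of Cldn5 was lost in the authors' processed values without further normalisation (0.33, limma adjusted p = 0.375). For Cldn4 the difference was -0.50 ± 0.67 (limma adjusted p = 0.59) and was not called, which does not show that the rises were equal. For Cldn2 it was -1.61 ± 0.75 and was not called (limma adjusted p = 0.11). It was called without healthy lung 3 (limma adjusted p = 0.00101) and without healthy lung 3 and fibrotic lung 1 together (limma adjusted p = 0.000487). In both fits the remaining healthy lungs were not above background, so no size is given. The difference was also called with array weights (-2.30, limma adjusted p = 0.0475) and in the authors' processed values without further normalisation (-2.46, limma adjusted p = 0.0103). Under the other settings it was not called. By probe, Cldn10 differed for ILMN_2610656 at -2.53 ± 0.36 (limma adjusted p = 0.00033), where the lungs were at background, and for ILMN_2723576 at -1.22 ± 0.45 (limma adjusted p = 0.049), a call that 13 of 20 other settings ended; it was not called without fibrotic kidney 2 (-0.83, limma adjusted p = 0.198).

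Between the healthy organs most claudins differed. Of 9 tested, 5 were higher in kidney and 3 higher in lung, beside 61.6% of all genes tested, 28.2% higher in kidney and 33.5% higher in lung. The groups did not overlap for 8 of them, beside 69.7% of all genes. Cldn18 was 126-fold higher in lung, at 12.17 to 12.39 against 4.90 to 5.64, Cldn5 30.1-fold higher and Cldn3 9.56-fold higher (limma adjusted p = 2e-09, 2.5e-08 and 1.9e-06). Cldn18 was above background in 1 of the 3 healthy kidneys and Cldn2 in 1 of the 3 healthy lungs, so these folds rest in part on signal at background. Cldn2 was 132-fold higher in kidney, and at least 188-fold higher without healthy lung 3. Cldn16 was not above background in any healthy lung and was at least 21.2-fold higher in kidney (limma adjusted p = 5.8e-09), and Cldn10 by ILMN_2610656 at least 44.7-fold. By their other measured probes Cldn10 was 4.00-fold to 6.48-fold higher in kidney. By the gene-level test Cldn4 was 4.55-fold and Cldn1 2.22-fold higher in kidney (limma adjusted p = 0.0016 and 0.005). Cldn7 differed by -0.18 ± 0.17 (SE) and was not called.

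The order of levels over the 4 groups thus took distinct forms. For Cldn2 and Cldn16 both kidney groups were above both lung groups, and for Cldn5 and Cldn18 both lung groups were above both kidney groups. For Cldn4 the order ran from obstructed kidney (12.65 ± 0.58, SD, n = 2) through treated lung (10.96 ± 0.39, SD, n = 3) and healthy kidney (8.47 ± 0.56, SD, n = 3) to healthy lung (6.29 ± 0.91, SD, n = 3), with no overlap between neighbours. For Cldn3 the obstructed kidneys (9.88 ± 0.68, SD, n = 2) reached into the range of the lungs, whose groups overlapped each other, and the healthy kidneys (7.25 ± 0.15, SD, n = 3) lay far below. The genes whose levels followed a claudin most closely over the 11 arrays, which span 2 organs and are not independent points, were Kcnk1, Bok and Tnfrsf12a for Cldn4 (r = 0.981, 0.976 and 0.969), Sdc4, Abcf1 and Polr1d for Cldn1 (r = 0.982, 0.970 and 0.956), Ext2, Tead2 and Pdpn for Cldn3 (r = 0.991, 0.988 and 0.985) and Lpar6, Smagp and Elp2 for Cldn7 (r = 0.947, 0.939 and 0.931). For the claudins that mainly part the organs they were Hoxb7, Spsb4 and Sel1l3 for Cldn2, Sh3gl2, Kcp and Fam107b for Cldn10, Clrn3, Slc4a9 and Slc9a3 for Cldn16, Tmcc2, Akap5 and Cav1 for Cldn5, and Nipa1, Foxa2 and Tbx4 for Cldn18, all at r of 0.984 or above.

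The array named 14 other claudins, of which 7 were tested. Over all genes tested, 38.8% were called in the obstructed kidney and 37.8% in the treated lung. In the obstructed kidney 1 of them was higher and 0 lower: Cldn6, a claudin of embryonic epithelium, rose from 6.27, 6.55 and 5.42 to 8.43 and 8.35, by 2.31 ± 0.27 (SE; limma adjusted p = 0.00013), and was not above background in any lung. In the lung 1 was lower and 0 higher: Cldn9, a claudin of the inner ear, fell by 0.88 ± 0.18 (SE; limma adjusted p = 0.0042), from 6.24, 6.79 and 6.37 to 5.53, 5.76 and 5.47. Cldn11, Cldn12, Cldn15, Cldn19 and Cldn23 were called in neither organ. Cldn19, the partner of Cldn16, had 7.91, 7.98 and 7.94 in healthy kidneys, 7.85 and 7.40 in the obstructed ones, both below the healthy range, and was not above background in any lung; its change of -0.32 ± 0.16 was not called (SE; limma adjusted p = 0.13). Cldn11 had 1 healthy kidney at 10.09 beside 5.83 and 5.81.

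The partners of claudins in the junction are given for comparison. Of all genes tested, 23.2% were higher and 15.6% lower in the obstructed kidney. In the treated lung 18.9% were higher and 18.9% lower. Of 12 membrane proteins of the tight junction tested, 3 were higher and 0 lower in the obstructed kidney (median log2 change 0.16) and 4 higher and 2 lower in the treated lung (median 0.11). Cxadr, an adhesion receptor, and F11r, a junctional adhesion molecule, rose in kidney by 1.39 ± 0.22 and 0.87 ± 0.15 (SE; limma adjusted p = 0.00073 and 0.0016). Marveld3, a relative of occludin, rose by 0.51 ± 0.18 by its brightest probe and changed by -0.07 by the mean of its probes. Its call was lost with the sign kept under 13 other settings, and it held in 1 of 11 fits that left out 1 array. In lung Lsr, a protein of tricellular corners, rose by 1.10 ± 0.16, Marveld3 by 0.98 ± 0.16 and Igsf5 by 1.13 ± 0.22, whereas F11r fell by 1.00 ± 0.14 and Ocln, occludin itself, by 0.60 ± 0.17 (limma adjusted p = 0.00056, 0.0011, 0.0028, 0.00046 and 0.02). The call of Ocln in lung held in 8 of 11 fits that left out 1 array, and 6 other settings in all ended it. Under the settings other than leaving out 1 array its change ran from -0.76 to -0.02. Ocln in kidney changed by 0.04 ± 0.19 and was not called.

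Of 21 scaffold and polarity proteins beneath the junction, 7 were higher and 2 lower in kidney (median 0.15) and 2 higher and 7 lower in lung (median -0.24). Beside the counts given here, 38.8% of all genes tested were called in kidney and 37.8% in lung. In kidney Tjp1, the scaffold that binds claudin tails, rose by 0.99 ± 0.21 and Amotl1 by 1.24 ± 0.18 (SE; limma adjusted p = 0.0039 and 0.00046), and the polarity protein Pard6b fell by 0.90 ± 0.20 (limma adjusted p = 0.005). In lung Pard3b fell by 1.22 ± 0.25 and the actin-binding Afdn by 0.72 ± 0.14, while Pard6b rose by 0.64 ± 0.18 and Plekha7 by 0.96 ± 0.21 (limma adjusted p = 0.0042, 0.0026, 0.016 and 0.0046). The call of Pard6b in lung held in 10 of 11 fits that left out 1 array, and 3 other settings in all ended it. Of 13 adherens junction genes, 8 were higher and 0 lower in kidney (median 0.66) and 2 higher and 2 lower in lung (median -0.13). The P-cadherin gene Cdh3 was at least 7.71-fold higher and Cdh6 at least 2.74-fold higher in the obstructed kidneys, both not above background in healthy ones (limma adjusted p = 1.2e-05 and 5.4e-05). Cdh3 also rose in lung, by 1.28 ± 0.21 (limma adjusted p = 0.0011).

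Of 21 transcription factors of epithelial state, 8 were higher and 1 lower in kidney (median 0.67) and 0 higher and 4 lower in lung (median -0.14). Over all genes tested, 38.8% were called in kidney and 37.8% in lung. Grhl2, a grainyhead factor known to act on the Cldn4 gene in mouse epithelia, stood at 7.50, 7.56 and 7.58 in healthy kidneys and 8.22 and 8.69 in the obstructed ones and rose by 0.91 ± 0.23 (SE; limma adjusted p = 0.011). In lung Grhl2 fell by 0.87 ± 0.21 (limma adjusted p = 0.0085), from 8.86, 8.94 and 8.23 to 7.80, 7.61 and 8.02. Any part of Grhl2 in the changes of Cldn4 was not tested. Snai1, a repressor of junction genes, rose by 1.49 ± 0.21 in kidney (limma adjusted p = 0.00046) and changed by 0.21 ± 0.19 in lung. Twist1 (log2 change 1.99) and Esrp1 (1.32) were also called higher in kidney, and Ovol1 (-1.71) was called lower. Among those called lower in lung were Snai3 (-1.37) and Zeb2. Of 11 proteins that bind, regulate or cleave claudins, 4 were higher and 1 lower in kidney, and 0 passed limma's adjusted threshold in lung, where 3 had an unadjusted p under 0.05; St14, the protease matriptase, rose by 1.73 ± 0.34 in kidney (limma adjusted p = 0.0028).

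**Figure D5:**
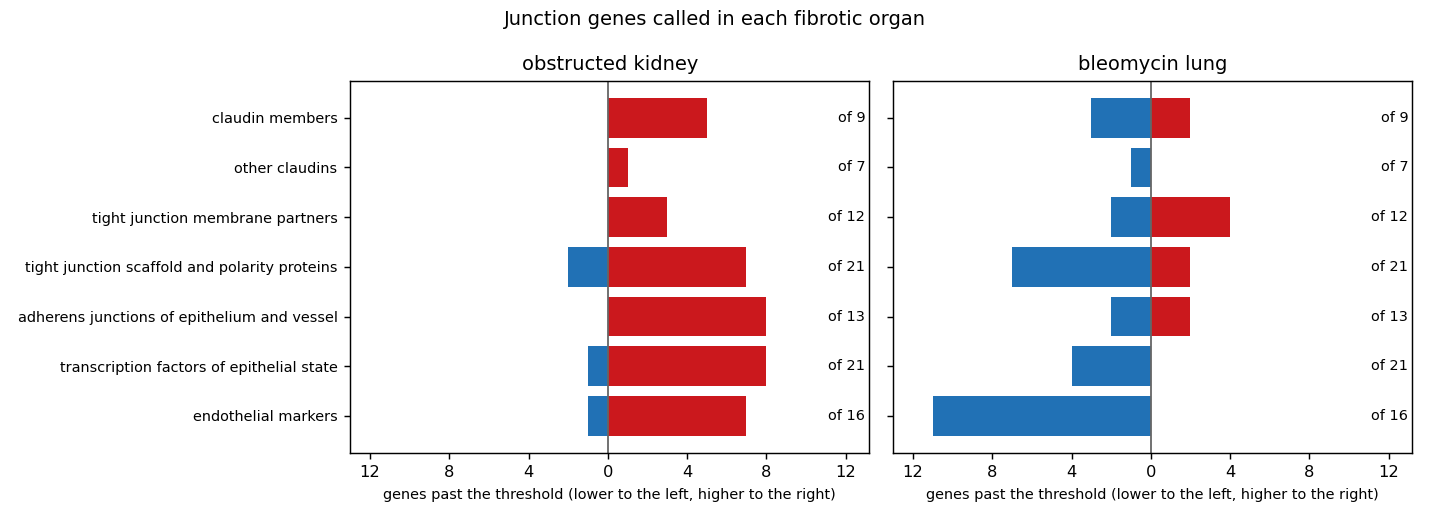
Number of genes of each list past the threshold in the obstructed kidney (left) and the bleomycin-treated lung (right), lower in blue and higher in red, with the number tested at the right edge. Scaffold and polarity proteins were 7 higher and 2 lower in kidney and 2 higher and 7 lower in lung, and endothelial markers 7 and 1 against 0 and 11. Of all genes tested, 38.8% were called in kidney and 37.8% in lung.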

How the data were processed

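Per the labels' protocols, RNA was extracted with Trizol and labelled with an Ambion kit; the submitters' processing notes name GenomeStudio 5.0. The deposited tables hold, per probe and array, the raw intensity, the authors' detection p-value and the authors' processed intensity, a linear function of the raw one on each array. No slide or scan date was at hand to test as a batch. Of 45281 probes, 34885 had 1 gene symbol in the platform annotation, 18 several and 10378 none, and only the first kind was named.

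The neqc function of limma 3.58.1 (R 4.3.3) corrected background, with negative controls inferred from detection p-values and an offset of 16, and quantile normalised the raw values. A probe needed a detection p under 0.05 on 2 or more arrays, which left 24396, and the brightest on average represented each of 12865 genes. The limma model held a mean for every group over all 11 arrays, with 7 residual and 3.22 prior degrees of freedom. Its p-values were Benjamini-Hochberg adjusted within each contrast over all genes, or over all kept probes where a probe is named. For "at least N-fold", the dim group took its lowest detected signal, or the probe's own where that was higher. The titles pair healthy kidneys with healthy lungs by mouse, while another label field does not; a fit with the mouse as a block was an alternative. The code was tested on simulated data.

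The claudins and gene lists were chosen with earlier results of these data known. Genes named beside the members are other claudins, those with the 3 smallest p-values per list and direction, a set of defining markers (among them Umod, Slc12a1, Sftpc, Scgb1a1, Cdh5, Krt5, Grhl2, Ocln, Tjp1, Xist and Eif2s3y), and the 3 genes closest to each claudin by Pearson r. Slc34a1, Pecam1 and other genes under the same rule are not printed. Alternatives were other background corrections, normalisations, filters and probe summaries, the authors' processed values, array weights, fewer groups in the fit, and leaving out arrays.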

Additional observations from a re-analysis of the deposited data

Results flagged for a closer look

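Some claudins changed differently in the obstructed kidney and in the bleomycin-treated lung by the test of the difference itself. The kidney change minus the lung change was 3.04 for Cldn1, 2.65 for Cldn3, 1.18 for Cldn5 and 1.60 for Cldn7, each past the threshold in limma. The difference for Cldn5 was 0.33 and not called in the authors' processed values without further normalisation. For 2 probes of Cldn10 the difference ran the other way, -2.53 for ILMN_2610656, which was at background in the lungs, and -1.22 for ILMN_2723576, whose call 13 of 20 other settings ended. The kidney groups differed in sex-linked transcripts as well as in obstruction, and the part of this in the differences was not tested.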

How the results depend on the processing

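Over the claudins, their further probes and the 4 contrasts, the alternatives left the call as it was in 998 cases, of which 974 kept their sign and 24, not called either way, changed it. They ended a call in 78 cases and made one in 35 with the sign kept, and in 1, Cldn18 in lung, a change not called in the main setting was called with the opposite sign. In kidney Cldn1, Cldn3, Cldn4 and Cldn7 kept their calls under every alternative run, as did Cldn4 in lung and Cldn1, Cldn3 and Cldn7 in the difference between organs. The number of claudins called in lung, 5, was 2 under scale normalisation, 2 with no filter on dim probes and between 2 and 6 when 1 array was left out; in kidney the last range was 4 to 5 around 5, and in the difference 4 to 5 around 4. Without healthy lung 3 and fibrotic lung 1, a choice made after seeing the data, lung had 4 and the difference 5.

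In the authors' processed values without further normalisation, some lung changes turned from negative to positive: Cldn18 to 0.51, Cldn12 to 0.46, Abca3 to 0.16, Sympk to 0.03 and Amotl1 to 0.02. That scaling moved the median change of all genes in lung from -0.03 to 0.47, and in kidney from 0.10 to -0.22; scale normalisation moved it to 0.08 and 0.30. In kidney Marveld3 went to -0.07 by the mean of its probes; the cause was not tested. The share of called genes that were higher, 59.6% for the difference and 45.7% for kidney against lung, was 66.6% and 35.2% under scale normalisation and 13.7% and 68.4% in the authors' values.

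The mouse labels shared by healthy kidneys and lungs were tested as a replicate block over those 6 arrays: 8 claudins were called, as without it, with 3535 genes higher and 4206 lower of 11874. Deviations of organs with the same mouse label had correlations of -0.07, 0.01 and -0.11, all close to 0. Cldn8, and Cldn16 and Cldn2 in healthy lungs, are limited by signal at background.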
